A study of Mus musculus with 6 samples.

Results

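The 8 genes described here encode the mouse receptors through which antibody and complement act on myeloid cells. Fcgr1, Fcgr3 and Fcgr4 are activating Fc-gamma receptors, Fcer1g is the signalling chain they share, and Fcgr2b is the inhibitory Fc-gamma receptor. C5ar1 and C3ar1 bind the anaphylatoxins C5a and C3a, and Ltb4r1 binds leukotriene B4. They were listed by name, as receptors linked to serum-transfer arthritis. All 8 were found among the 31017 genes of each of the 6 count matrices.

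Cells of the mouse knee synovium, the lining of the joint, were read 1 by 1 as 10x Genomics 3' single-cell RNA libraries. Each of the 6 libraries pooled the synovial tissue of 10 mice and forms a group of its own. The groups were arthritic mice given an anti-Notch3 monoclonal antibody, arthritic mice given an isotype control antibody, arthritic Notch3-/- knockout mice, arthritic wild-type mice, healthy Notch3-/- knockout mice and healthy wild-type mice. Arthritis was brought on in 4 groups by transfer of K/BxN serum, whose autoantibodies inflame the joints of recipient mice. Living cells were sorted with no gate for cell type, and 7000 or more were loaded per library. The genotype of the mice given either antibody, and the strain, age, serum dose and day of sampling of all groups, are not given in the sources used here.

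Fc-gamma receptors bind the constant part of IgG. In mice Fcgr1, Fcgr3 and Fcgr4 associate with the Fcer1g chain, whose immunoreceptor tyrosine-based activation motif (ITAM) recruits Syk after phosphorylation by Src-family kinases. Fcgr2b carries an inhibitory counterpart (ITIM) that recruits the phosphatase Inpp5d (SHIP). In K/BxN serum transfer, IgG complexes on cartilage engage these receptors and activate complement. C5a and leukotriene B4, acting through C5ar1 and Ltb4r1, bring neutrophils into the joint, and the disease is reduced in mice that lack Fcgr3, Fcer1g, C5ar1 or Ltb4r1.

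Of 18491 deposited barcodes 17898 were kept, and 4169 of them fell into a myeloid gate: 748, 493, 485 and 804 cells in the arthritic anti-Notch3, isotype, Notch3-/- and wild-type libraries, and 865 and 774 in the healthy Notch3-/- and wild-type libraries. Gates were set on unique molecular identifiers (UMIs, counted molecules) of marker genes, none of them a receptor described here. They held 1395 resident macrophages (C1q-positive, with Lyve1, Vsig4, Folr2, Timd4 or Cd163), 526 Trem2 macrophages, 593 MHC-II-high macrophages, 219 other macrophages, 437 monocytes, 781 MHC-II-high cells with little C1q, 173 dendritic cells and 45 neutrophils. Library totals ranged from 11636998 to 24535233 UMIs, with medians of 3988 to 7561 UMIs per cell. Of the barcode sequences, 177 occurred in more than 1 library. Notch3 itself was detected in 3 and 7 UMIs of the arthritic and healthy Notch3-/- libraries (0.257 and 0.299 CPM, counts scaled to a total of 1e+06), against 5.58 and 4.96 CPM in the arthritic and healthy wild-type libraries; it lay at 2.21 CPM in the anti-Notch3 library and 3.30 CPM in the isotype library. The gates differed in size between libraries: monocytes made up 1.94%, 1.22% and 12.7% of cells in the arthritic isotype, Notch3-/- and wild-type libraries and 0.723% in the healthy wild-type library, while the anti-Notch3 and healthy Notch3-/- libraries had 14 and 8 such cells and are left out of monocyte comparisons.

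Each level below is the gene's CPM over all UMIs of the cells of a gate in 1 library, with an exact Poisson interval at 95% where one is given. Intervals cover counting error only. Reads come from 3' ends and are not scaled by transcript length, so levels are compared between gates and libraries, not between genes. With 1 library per group, no pair of groups has a test of its own.

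The receptors fell into distinct cells. C5ar1 and C3ar1 messages came mostly from macrophages with a resident profile, which gave 61.8% of all C5ar1 UMIs in the kept cells and 55.7% of C3ar1 UMIs. The same macrophages gave 45.8% of Fcgr3 UMIs, more than any other gate. Fcgr4 came from the other macrophages, with 35.3% of its UMIs in MHC-II-high and 25.7% in Trem2 macrophages, against 6.94% in resident macrophages. Fcgr1 was split between monocytes (27.7%), MHC-II-high macrophages (25.1%) and resident macrophages (20.1%). Ltb4r1 had 53.7% of its UMIs in MHC-II-high cells with little C1q, and Fcgr2b had 29.6% there and 27.1% in resident macrophages. These shares depend on how many cells of each gate were captured. Outside the myeloid gates the messages were sparse: fibroblasts, the most numerous cells with 10102, held 2.81 to 35.0 CPM of Fcer1g, and gated B cells held no UMI of Fcgr1, Fcgr3, C3ar1 or Ltb4r1. NK and T cells were an exception for Fcer1g, at 495 to 1189 CPM, and for Ltb4r1, at 18.8 to 113 CPM.

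**Figure D1:**
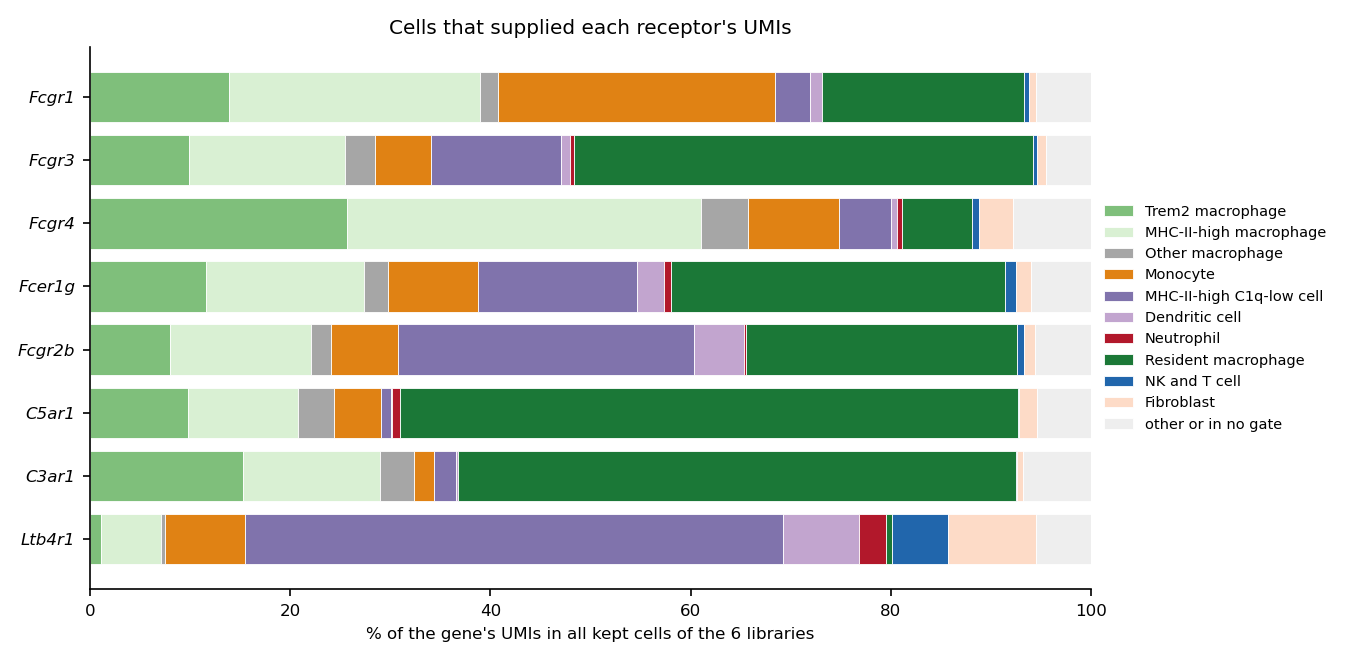
Share of each receptor's UMIs (horizontal axis, % of the gene's UMIs in all kept cells of the 6 libraries) that came from each gate, 1 bar per gene with gates as coloured segments. C5ar1 and C3ar1 are mostly resident macrophage (61.8% and 55.7%), whereas Fcgr4 has 6.94% and Ltb4r1 0.607% of its UMIs there.

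The promoters of the activating receptors Fcgr1 and Fcgr4 are printed because the levels of these genes are set beside those of interferon-response genes below, and because both windows hold letters of interferon-linked motifs. All 8 genes were matched in the RefSeq promoter table (GRCm38.p6), as 9 entries, and the 250 bases before each start were searched on both strands. The motifs were the PU.1 core GAGGAA, bound by the myeloid factor PU.1; the gamma-activated site (GAS) TTCNNNGAA, linked to the interferon-gamma response; and the interferon-stimulated response element (ISRE), searched as GAAA and GAAA parted by any 2 bases and bound by interferon regulatory factors. The Fcgr1 sequence is chr3:96293970-96294219 and the Fcgr4 sequence is chr1:171018676-171018925, on the minus and plus strand of the genome; both read 5′ to 3′ towards the gene, and capitals mark motif matches.
Fcgr1 promoter: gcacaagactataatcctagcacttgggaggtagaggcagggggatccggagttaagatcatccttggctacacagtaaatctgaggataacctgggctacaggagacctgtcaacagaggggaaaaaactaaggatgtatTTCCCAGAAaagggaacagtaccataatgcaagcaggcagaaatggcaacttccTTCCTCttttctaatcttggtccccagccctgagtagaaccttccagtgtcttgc
Fcgr4 promoter: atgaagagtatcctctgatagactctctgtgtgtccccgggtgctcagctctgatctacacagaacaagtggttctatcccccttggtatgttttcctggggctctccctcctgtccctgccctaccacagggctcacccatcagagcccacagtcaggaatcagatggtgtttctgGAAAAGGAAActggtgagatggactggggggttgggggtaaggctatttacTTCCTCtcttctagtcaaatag
In the Fcgr1 sequence the capitals are a GAS match that begins 109 bases before the start and a PU.1 core on the opposite strand at 55 bases. The Fcgr4 sequence has an ISRE match at 73 bases and a PU.1 core on the opposite strand at 22 bases. Among 32544 mouse promoters of the same length, 7.043% held the GAS letters, 2.981% the ISRE letters and 23.36% the PU.1 core. Fcgr3 and Ltb4r1 held the PU.1 core alone, and the windows of Fcer1g, Fcgr2b, C5ar1 and C3ar1 held none of the 3. A match is a stretch of letters and not a measured binding site.

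Fcgr1, the high-affinity receptor for IgG2a, was higher in MHC-II-high and Trem2 macrophages than in resident macrophages. MHC-II-high macrophages had 192, 211, 56.9 and 361 CPM in the arthritic anti-Notch3, isotype, Notch3-/- and wild-type libraries, and 89.5 and 85.1 CPM in the healthy Notch3-/- and wild-type libraries, above resident macrophages in every library. Trem2 macrophages, present in sufficient number in 3 libraries, had 131, 92.2 and 236 CPM in the arthritic anti-Notch3, isotype and wild-type libraries. Resident macrophages had 85.8, 52.2, 40.4 and 24.9 CPM in the arthritic anti-Notch3, isotype, Notch3-/- and wild-type libraries, and 43.3 and 48.5 CPM in the healthy Notch3-/- and wild-type libraries, the highest of them in the anti-Notch3 library. edgeR's quasi-likelihood test with library as a block and Benjamini-Hochberg adjustment over all genes gave a log2 fold change of 1.65 for MHC-II-high over resident macrophages (SE 0.259, adjusted p = 1.03e-04, higher in 6 of 6 libraries) and 1.32 for Trem2 over resident macrophages (SE 0.300, adjusted p = 0.00900, higher in 3 of 3); DESeq2 did not call the second (adjusted p = 0.397).

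Monocytes split by library. Their Fcgr1 level was 294, 25.1 and 444 CPM in the arthritic isotype, Notch3-/- and wild-type libraries, and 16.2 CPM in the healthy wild-type library. The counting intervals were 225 to 377 CPM for the arthritic isotype library and 404 to 486 CPM for the arthritic wild-type library, against 6.84 to 64.2 CPM for the arthritic Notch3-/- library and 1.96 to 58.4 CPM for the healthy wild-type library. The high pair and the low pair did not overlap. An Fcgr1 UMI was seen in 47.5%, 12.5% and 60.1% of monocytes in the arthritic isotype, Notch3-/- and wild-type libraries. In the healthy wild-type library the share was 9.52%. Among monocytes with 2000 or more UMIs, each thinned to 2000, the shares were 41.7%, 3.23%, 46.9% and 0% in the same order of libraries. Cells with fewer UMIs were left out of these thinned shares. Against resident macrophages the monocyte difference was not called (log2 fold change 1.73, SE 0.640, edgeR adjusted p = 0.0584, higher in 2 of 4 libraries), and it passed the threshold in 5 of 11 alternative settings, among them those without the arthritic Notch3-/- library (2.24, edgeR adjusted p = 0.0281) and without the healthy wild-type library (2.34, edgeR adjusted p = 0.0175).

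Other messages of the monocyte gate moved with Fcgr1. C5ar1 had 199, 12.5 and 216 CPM in the arthritic isotype, Notch3-/- and wild-type libraries, and 72.8 CPM in the healthy wild-type library, and C3ar1 had 80.6, 12.5 and 109 CPM in the arthritic isotype, Notch3-/- and wild-type libraries, and 8.08 CPM in the healthy wild-type library, so both were lowest in the libraries with little Fcgr1. A sum of 11 interferon-response genes (Irf7, Isg15, Ifit1, Ifit3, Oas1a, Rsad2, Ifi47, Igtp, Gbp2, Cxcl9 and Cxcl10), a list drawn up after the values were seen, had 1095, 282 and 2202 CPM in monocytes of the arthritic isotype, Notch3-/- and wild-type libraries and 146 CPM in those of the healthy wild-type library. Trem2-macrophage markers summed to 2086, 81.6 and 3121 CPM against 80.8 CPM, and MHC-II-high macrophage markers to 32878, 5828 and 47983 CPM against 20196 CPM, in the same order of libraries. The first of these sums was mostly Spp1: pooled over all monocytes, it had 3390 UMIs, against 130 of Trem2, 156 of Ms4a7 and 16 of Gpnmb. Trem2 alone had 99.5, 25.1 and 91.1 CPM against 56.6 CPM. The 10 neutrophil markers summed to 185, 1380 and 175 CPM against 16.2 CPM, and the 11 dissociation-stress genes to 20957, 5087 and 6286 CPM against 6468 CPM. NK and T cell markers lay at 0 to 12.5 CPM, and no mural-cell marker had a UMI in any of the 4. The part of these other messages in the Fcgr1 level was not tested.

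Across gates Fcgr1 and the interferon sum went together in part. MHC-II-high macrophages held 402, 394, 171 and 1866 CPM of the interferon sum in the arthritic anti-Notch3, isotype, Notch3-/- and wild-type libraries and 384 and 50.7 CPM in the healthy Notch3-/- and wild-type libraries. Fcgr1 was highest where the sum was highest, in the arthritic wild-type library, but lay at 89.5 and 85.1 CPM in the healthy Notch3-/- and wild-type libraries, although their sums differed. Resident macrophages held 97.9 to 185 CPM of the sum in all 6 libraries. By the rule that names the genes with the most similar pattern over 35 points (gates with 20 or more cells in each library, 6858 genes, Pearson r of log2(CPM + 1)), Fcgr1 came closest to Ifi204 (r = 0.892), an interferon-inducible gene, and to Ms4a6d (0.890) and Fth1 (0.859). The points share libraries and gates, so r is a description only.

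**Figure D2:**
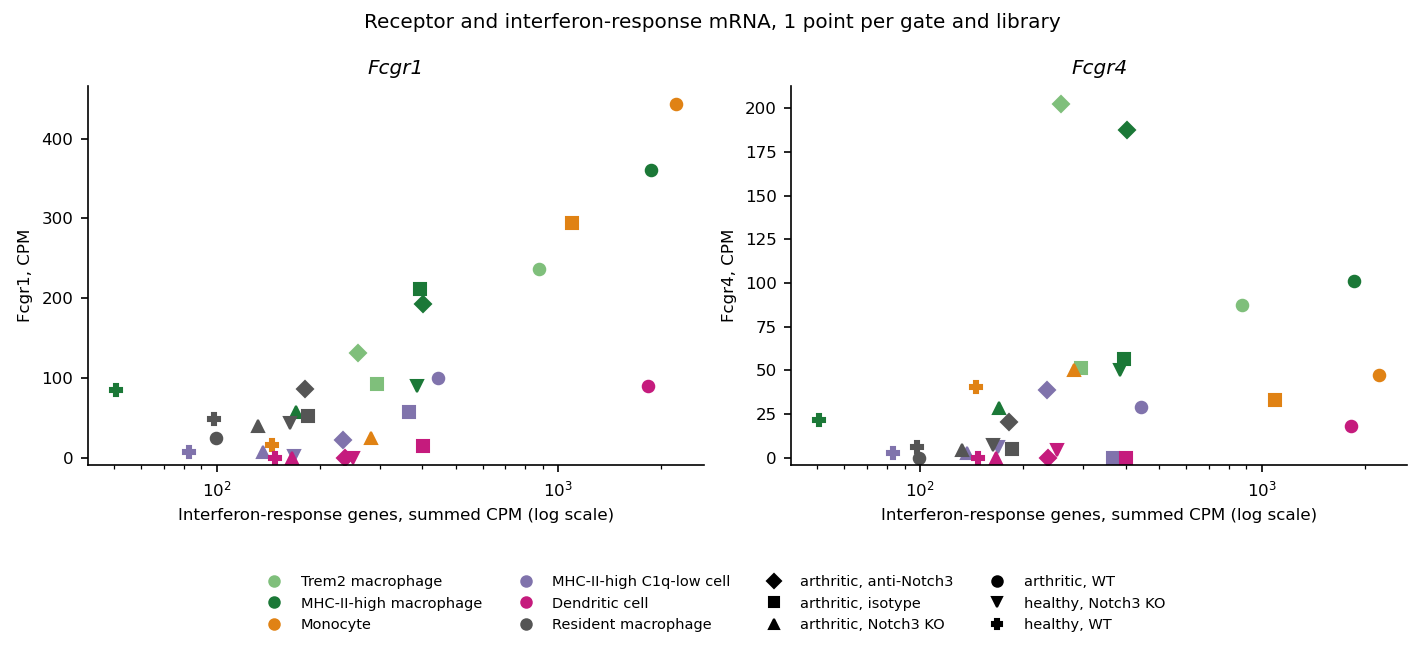
Level of Fcgr1 (left) and Fcgr4 (right), in CPM on a linear axis, against the summed CPM of 11 interferon-response genes (log scale), 1 point per gate (colour) and library (shape). The 3 points with the largest interferon sums are monocytes, dendritic cells and MHC-II-high macrophages of the arthritic wild-type library, with 444, 90.2 and 361 CPM of Fcgr1; for Fcgr4 the highest points are Trem2 and MHC-II-high macrophages of the anti-Notch3 library (203 and 188 CPM), whose interferon sums are 259 and 402 CPM.

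Fcgr3, the activating receptor without which serum-transfer arthritis is weakened, was found in every macrophage gate at like levels. MHC-II-high macrophages had 329 to 637 CPM, and resident macrophages had 621, 429.8, 549 and 460.0 CPM in the arthritic anti-Notch3, isotype, Notch3-/- and wild-type libraries, and 512 and 553 CPM in the healthy Notch3-/- and wild-type libraries. The levels of these gates overlapped (log2 fold change 0.18, SE 0.108, edgeR adjusted p = 0.228, higher in 3 of 6 libraries). Trem2 macrophages had 581, 348 and 497 CPM in the arthritic anti-Notch3, isotype and wild-type libraries, on both sides of resident macrophages (0.01, SE 0.144, edgeR adjusted p = 0.980). Monocytes ranged over 194 to 461 CPM (-0.61, SE 0.238, edgeR adjusted p = 0.0711), MHC-II-high cells with little C1q over 190.5 to 310.1 CPM and dendritic cells over 29.7 to 123 CPM. Fcgr3 was lower than in resident macrophages in C1q-low cells (log2 fold change -0.69, SE 0.107, edgeR adjusted p = 5.23e-05) and in dendritic cells (-2.78, SE 0.246, edgeR adjusted p = 6.26e-07), in 6 of 6 libraries each. Genes with the most similar pattern were Lyz2 (r = 0.922), Csf1r (0.912), the receptor for macrophage colony-stimulating factor, and Cd300ld (0.907).

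Fcgr4, which binds IgG2a and IgG2b, was found in the non-resident macrophages. Trem2 macrophages had 203, 51.6 and 87.7 CPM in the arthritic anti-Notch3, isotype and wild-type libraries, and MHC-II-high macrophages had 188, 56.3, 28.4 and 101 CPM in the arthritic anti-Notch3, isotype, Notch3-/- and wild-type libraries, and 50.02 and 21.7 CPM in the healthy Notch3-/- and wild-type libraries. Resident macrophages had 20.3, 4.75, 4.70 and 0 CPM in the arthritic anti-Notch3, isotype, Notch3-/- and wild-type libraries, and 7.22 and 6.06 CPM in the healthy Notch3-/- and wild-type libraries, from 0 to 22 UMIs per library. Both gates exceeded resident macrophages in every library measured, with log2 fold changes of 3.63 (SE 0.320, edgeR adjusted p = 1.37e-06, 3 of 3 libraries) and 3.16 (SE 0.284, edgeR adjusted p = 2.42e-07, 6 of 6). The anti-Notch3 library was the highest in both. Monocytes had 33.2, 50.2 and 47.5 CPM in the arthritic isotype, Notch3-/- and wild-type libraries, and 40.4 CPM in the healthy wild-type library, with overlapping counting intervals, and also lay above resident macrophages (3.30, SE 0.541, edgeR adjusted p = 5.89e-04, 4 of 4). The split of Fcgr1 between monocyte libraries was not seen in Fcgr4. Clec4a1 (r = 0.807), Gdf3 (0.788) and Csf3r (0.762) had the most similar patterns to Fcgr4.

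Fcer1g, the common chain, was detected in nearly every macrophage: pooled over libraries, 99.2% of Trem2 and 99.7% of resident macrophages had a UMI. MHC-II-high macrophages had 3767, 3349, 2729 and 3685 CPM in the arthritic anti-Notch3, isotype, Notch3-/- and wild-type libraries, and 2369 and 1934 CPM in the healthy Notch3-/- and wild-type libraries, and Trem2 macrophages had 3619.6, 2926 and 3321 CPM in the arthritic anti-Notch3, isotype and wild-type libraries. Resident macrophages had 2996, 2726, 2568 and 2635 CPM in the arthritic anti-Notch3, isotype, Notch3-/- and wild-type libraries, and 2664 and 1956 CPM in the healthy Notch3-/- and wild-type libraries. Monocytes held 2503 to 3278 CPM, C1q-low cells 1645 to 2365 CPM and dendritic cells 960.1 to 1489 CPM. Fcer1g was higher in MHC-II-high than in resident macrophages by a small margin (log2 fold change 0.41, SE 0.103, edgeR adjusted p = 0.00534), in 4 of 6 libraries by CPM; with scaling by total UMIs alone, which moved the median of all genes by -0.26, the difference was 0.16 and was not called (edgeR adjusted p = 0.190). It was lower in dendritic cells (-0.80, SE 0.134, edgeR adjusted p = 1.95e-04, lower in 6 of 6). In C1q-low cells the log2 difference was -0.01 (SE 0.0918), and total-UMI scaling, which moved the median of all genes by -0.37 there, made it -0.35 with an edgeR adjusted p of 0.00292. The Trem2 difference was 0.35 (SE 0.113, edgeR adjusted p = 0.0690, higher in 3 of 3). Sdcbp (r = 0.919), Plin2 (0.862) and Apoe (0.854) followed Fcer1g most closely.

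**Figure D3:**
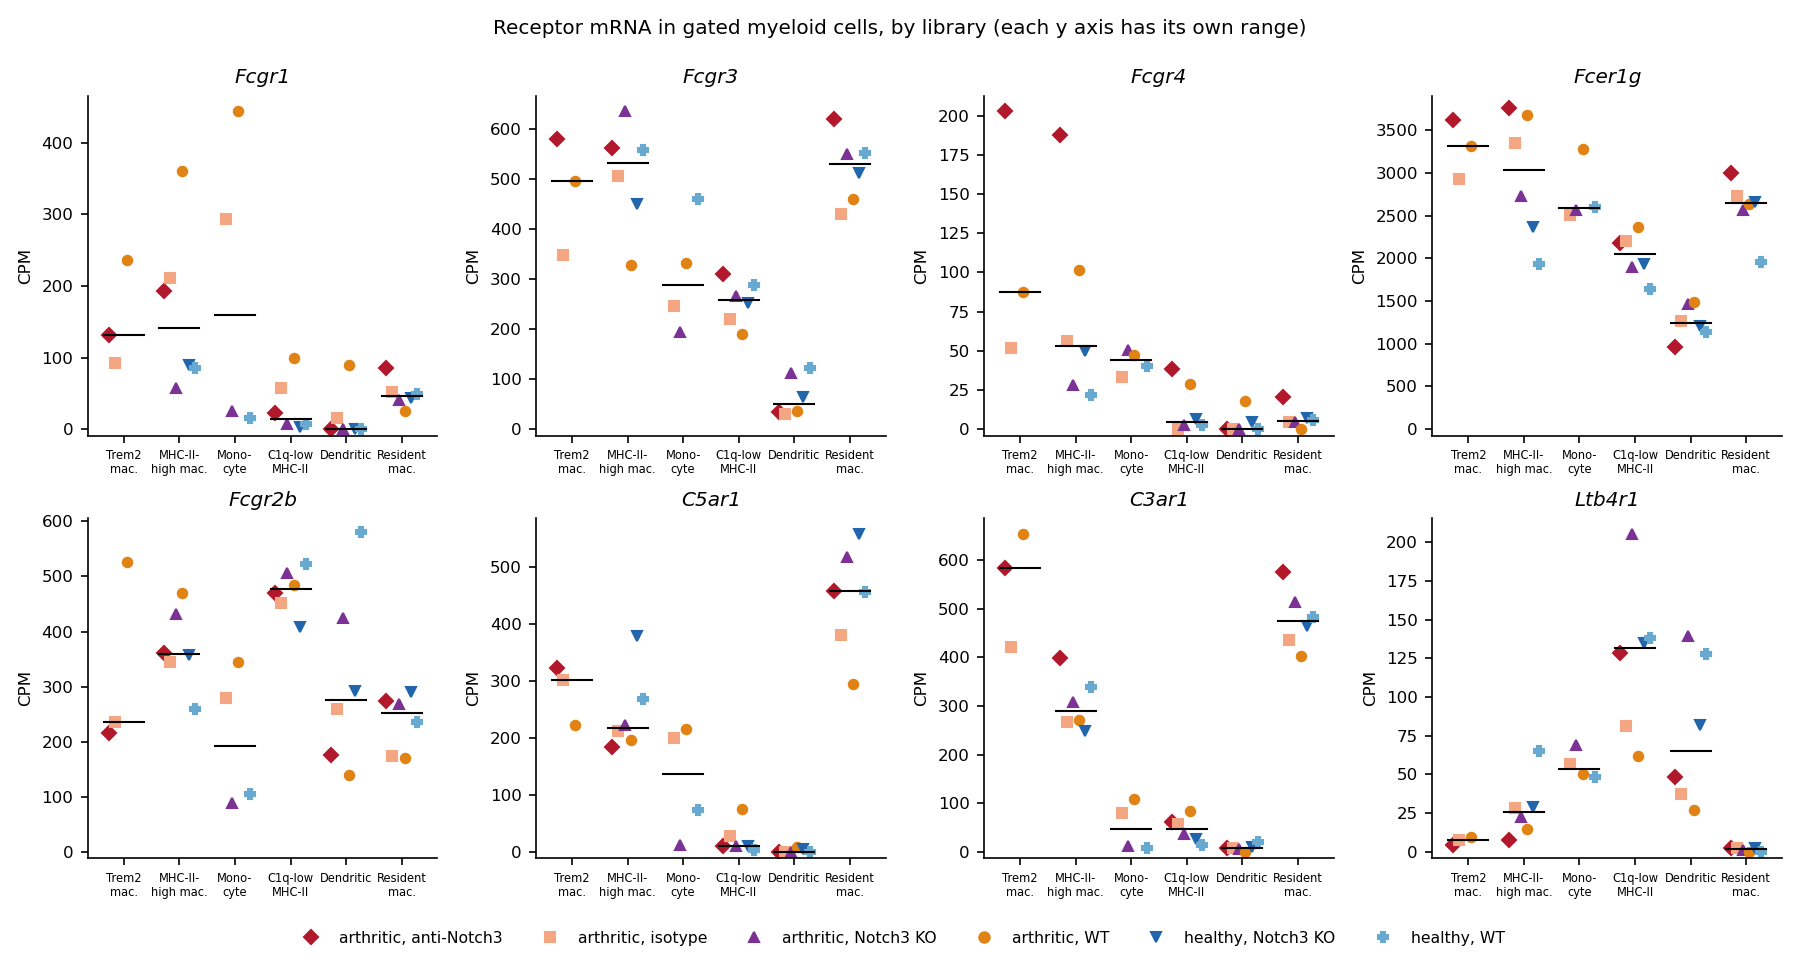
CPM of the 8 receptors (vertical axes, each with its own range) in 6 myeloid gates, 1 symbol per library with 20 or more cells in the gate; the bar is the median of the libraries shown. Fcgr4 lies above resident macrophages in Trem2 and MHC-II-high macrophages, C5ar1 and C3ar1 lie at 0 to 82.8 CPM in C1q-low and dendritic cells, and Ltb4r1 is near 0 in resident macrophages.

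Fcgr2b, the inhibitory receptor, followed another order of cells. MHC-II-high cells with little C1q had 469.8, 451, 506 and 485 CPM in the arthritic anti-Notch3, isotype, Notch3-/- and wild-type libraries, and 408 and 522 CPM in the healthy Notch3-/- and wild-type libraries, all above every resident-macrophage value. Resident macrophages had 274, 173, 269 and 169.9 CPM in the arthritic anti-Notch3, isotype, Notch3-/- and wild-type libraries, and 289 and 235 CPM in the healthy Notch3-/- and wild-type libraries. The difference was a log2 fold change of 1.34 (SE 0.126, edgeR adjusted p = 1.84e-07, higher in 6 of 6 libraries). MHC-II-high macrophages had 259 to 469.6 CPM and were also above resident macrophages (0.85, SE 0.153, edgeR adjusted p = 3.71e-04, 6 of 6). Dendritic cells ranged widely, over 139.9 to 581 CPM; their difference of 0.57 (SE 0.215, edgeR adjusted p = 0.0412, higher in 4 of 6) was not called in 6 of 12 alternative settings, among them those without the arthritic isotype, arthritic Notch3-/-, healthy Notch3-/- or healthy wild-type library (edgeR adjusted p 0.0577 to 0.186). Trem2 macrophages had 215, 236 and 526 CPM in the arthritic anti-Notch3, isotype and wild-type libraries (0.60, SE 0.251, edgeR adjusted p = 0.167); without the anti-Notch3 library the difference was 1.09 and was called (edgeR adjusted p = 0.00169). Monocytes had 279.7, 87.8 and 344 CPM in the arthritic isotype, Notch3-/- and wild-type libraries, and 105 CPM in the healthy wild-type library, and the fitted difference was -0.00 (SE 0.396, edgeR adjusted p = 0.996). Nsun6 (r = 0.689), Cysltr1 (0.678) and Cd2 (0.669) had the most similar patterns, with lower r than the leading gene of any other member.

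Within a gate, the share of Fcgr2b among the UMIs of the 4 Fc-gamma receptors was taken in each library. Since levels are not compared between genes, the share is read between gates and libraries only. It is not the true ratio of inhibitory to activating messages. Dendritic cells had shares of 83.3%, 85.4%, 79.0% and 49.2% in the arthritic anti-Notch3, isotype, Notch3-/- and wild-type libraries, and 81.0% and 82.5% in the healthy Notch3-/- and wild-type libraries. C1q-low cells had 55.9%, 62.0%, 64.8% and 60.3% in the same arthritic libraries and 60.9% and 63.7% in the healthy ones. Resident macrophages had 27.4%, 26.3%, 31.1% and 25.9% in the arthritic libraries and 34.0% and 27.9% in the healthy ones. The median difference from resident macrophages was 51.3 percentage points in dendritic cells (23.3 to 59.1) and 34.0 points in C1q-low cells (27.0 to 35.8). It was 4.19 points in MHC-II-high macrophages (0.169 to 11.3), whose shares overlapped with those of resident macrophages. Each of these 3 differences was positive in 6 of 6 libraries, with p = 0.03125 in a two-sided exact sign-flip permutation test, the smallest value that 6 libraries can give; adjusted over the 6 gates compared, each was 0.0625 (exact test, Benjamini-Hochberg), so none passed 0.05. Monocytes (16.9% to 32.8%, 4 libraries), other macrophages (24.2% to 34.6%, 4 libraries) and Trem2 macrophages (19.0% to 39.1%, 3 libraries) lay on both sides of resident macrophages, each with an adjusted exact p of 0.75; 4 and 3 libraries cannot give an unadjusted p below 0.125 and 0.25.

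The arthritic wild-type library stood apart among dendritic cells, with an Fcgr2b share of 49.2% (exact binomial interval 36.4% to 62.1%), while the other 5 libraries had 79.0% to 85.4%. It held 20 Fcgr1 UMIs (90.2 CPM) in 38 dendritic cells, against 0 to 2 UMIs elsewhere, and 4 of the 5 Fcgr4 UMIs. In that gate the 6 monocyte markers summed to 2504 CPM in the arthritic wild-type library and 329 to 1024 CPM in the others, and the interferon sum to 1827 CPM against 148 to 401 CPM. Their part in the lower share was not tested. With that library left out of the edgeR comparison, Fcgr1 was lower in dendritic cells than in resident macrophages (-4.31, adjusted p = 6.78e-05); with it, the value was -1.55 (SE 0.731, edgeR adjusted p = 0.0937).

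**Figure D4:**
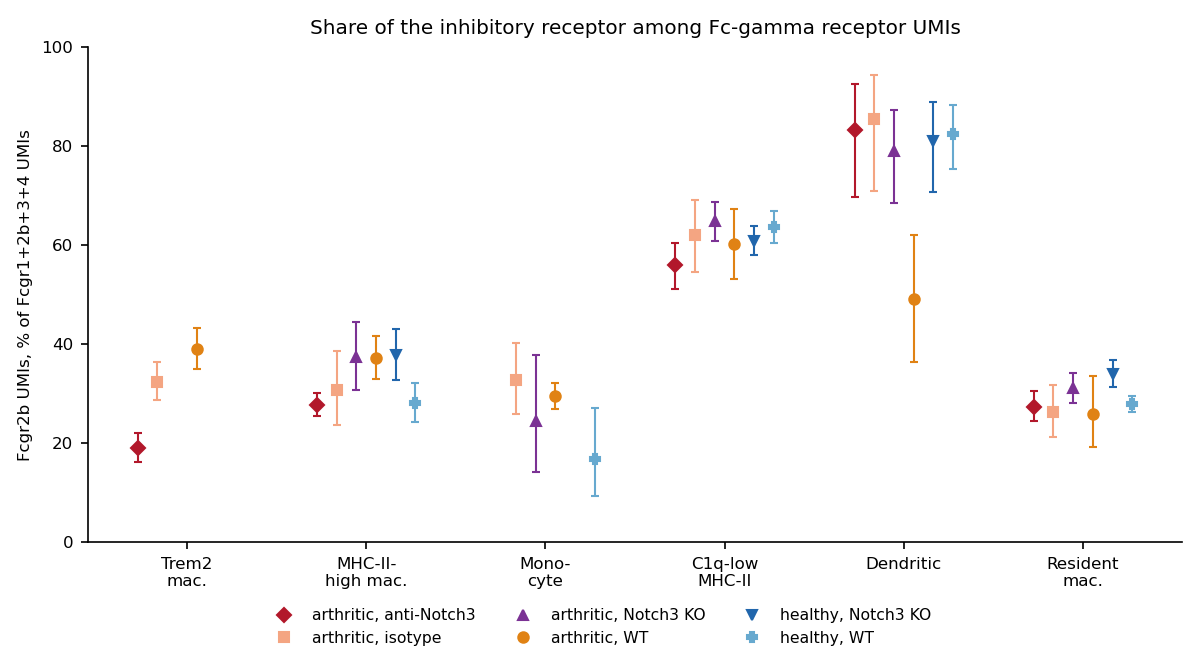
Fcgr2b UMIs as % of the UMIs of Fcgr1, Fcgr2b, Fcgr3 and Fcgr4 (vertical axis) in each gate, 1 symbol per library with its exact binomial 95% interval. C1q-low cells lie at 55.9% to 64.8% and dendritic cells at 79.0% to 85.4% in 5 of 6 libraries, above resident macrophages at 25.9% to 34.0%.

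C5ar1 and C3ar1, the receptors for C5a and C3a, were macrophage messages, most abundant where C1q was. In MHC-II-high macrophages C5ar1 had 184, 211, 222 and 195 CPM in the arthritic anti-Notch3, isotype, Notch3-/- and wild-type libraries, and 379 and 268 CPM in the healthy Notch3-/- and wild-type libraries. In resident macrophages it had 458, 379.9, 517 and 294 CPM in the arthritic anti-Notch3, isotype, Notch3-/- and wild-type libraries, and 557 and 456 CPM in the healthy Notch3-/- and wild-type libraries, so MHC-II-high macrophages lay below resident macrophages in every library (log2 fold change -0.64, SE 0.130, edgeR adjusted p = 0.00112). C3ar1 had 247 to 399 CPM in MHC-II-high macrophages and was lower by a smaller margin (-0.40, SE 0.112, edgeR adjusted p = 0.0110, lower in 6 of 6), a call lost with doubled gate thresholds and without the healthy Notch3-/- library (edgeR adjusted p = 0.0566 and 0.0540). Resident macrophages held 402 to 575 CPM of C3ar1. In Trem2 macrophages C5ar1 had 322, 301 and 222 CPM in the arthritic anti-Notch3, isotype and wild-type libraries, and C3ar1 had 584, 422 and 653 CPM in the arthritic anti-Notch3, isotype and wild-type libraries; neither was called against resident macrophages (-0.31 and 0.32, edgeR adjusted p = 0.251 and 0.264).

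Dendritic and C1q-low cells had little of either anaphylatoxin receptor. C1q-low cells held 2.80 to 74.5 CPM of C5ar1 and 14.9 to 82.8 CPM of C3ar1, and dendritic cells 0 to 9.02 CPM and 0 to 19.7 CPM. Against resident macrophages C5ar1 had log2 fold changes of -4.63 (SE 0.382, edgeR adjusted p = 3.97e-08) and -7.08 (SE 0.393, edgeR adjusted p = 5.80e-09) in these gates, and C3ar1 had log2 fold changes of -3.31 (SE 0.239, edgeR adjusted p = 8.22e-09) and -5.52 (SE 0.291, edgeR adjusted p = 4.02e-09), all lower in 6 of 6 libraries. The dendritic values rest on 3 C5ar1 and 10 C3ar1 UMIs in 173 cells, so the size of those folds is loosely set. Monocytes were lower in both, C5ar1 by -1.62 (SE 0.502, edgeR adjusted p = 0.0274) and C3ar1 by -2.86 (SE 0.458, edgeR adjusted p = 5.01e-04), in 4 of 4 libraries; the C5ar1 call was lost without the arthritic Notch3-/- library (adjusted p = 0.0643) and without the healthy wild-type library (adjusted p = 0.106). Among the genes most like C5ar1 were Msr1 (r = 0.946), the scavenger receptor A gene, and Maf (0.938), which encodes a macrophage transcription factor. C3ar1 was closest to Adgre1 (0.944), which encodes F4/80, to C1qa (0.941), a gene used to set the gates, and to March8 (0.936). Between the 2 members themselves r was 0.864.

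Ltb4r1, the high-affinity leukotriene B4 receptor, was a message of cells with little C1q. C1q-low cells had 128, 81.3, 205 and 62.1 CPM in the arthritic anti-Notch3, isotype, Notch3-/- and wild-type libraries, and 135 and 138 CPM in the healthy Notch3-/- and wild-type libraries, and dendritic cells had 48.2, 37.1, 139.6 and 27.1 CPM in the arthritic anti-Notch3, isotype, Notch3-/- and wild-type libraries, and 82.2 and 128 CPM in the healthy Notch3-/- and wild-type libraries. Monocytes held 48.5 to 69.0 CPM. MHC-II-high macrophages held 7.33 to 65.2 CPM, and all 1395 resident macrophages together held 7 UMIs (0.918 CPM, interval 0.369 to 1.89). The log2 fold changes over resident macrophages were 7.34 (SE 0.328, edgeR adjusted p = 2.71e-11) in C1q-low cells, 6.51 (SE 0.605, edgeR adjusted p = 1.01e-06) in dendritic cells, 6.57 (SE 0.733, edgeR adjusted p = 3.40e-05) in monocytes and 5.15 (SE 0.676, edgeR adjusted p = 1.56e-05) in MHC-II-high macrophages, higher in every library tested; their size rests on those 7 UMIs. Ltb4r1 did not pass the filter on low counts for Trem2 macrophages, which had 13 UMIs. Where it passed, it did so only through the UMIs of the gate set against resident macrophages. The higher direction was thus fixed by the filter, and these calls are no independent support. Napsa (r = 0.900), Lsp1 (0.894) and Gm2a (0.891) were most similar, and r with C5ar1 was -0.70.

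Counted over the members, the 5 comparisons with resident macrophages read as follows. In MHC-II-high macrophages 5 of 8 were higher and 2 lower, where 29.3% of the 6370 genes tested were called (15.5% higher and 13.8% lower). In Trem2 macrophages 2 of the 7 tested were higher, Fcgr1 and Fcgr4, and none lower, against 9.38% of 5866 genes called (4.93% higher and 4.45% lower). In monocytes 2 of 8 were higher and 2 lower, against 31.3% of 4994 genes (15% higher and 16.3% lower). In C1q-low cells 2 of 8 were higher and 4 lower, against 45.2% of 7926 genes (22.5% higher and 22.7% lower), and in dendritic cells 2 of the 7 tested were higher and 4 lower, against 50% of 4063 genes (23.1% higher and 26.9% lower). The lower call of Fcgr1 in C1q-low cells (-1.23, SE 0.457, edgeR adjusted p = 0.0367, lower in 4 of 6 libraries) was lost in 6 of 13 alternative settings, with adjusted p up to 0.161, among them those without the anti-Notch3, arthritic Notch3-/-, healthy Notch3-/- or healthy wild-type library. Filters on low counts passed all 8 members in 3 of these comparisons and left out Ltb4r1 in Trem2 macrophages and Fcgr4 in dendritic cells. A member with few UMIs in 1 gate passes only through the other gate, which fixes the direction of its call. This holds for the higher calls of Ltb4r1 and the lower calls of C5ar1 and C3ar1 in dendritic cells. It may hold for Fcgr4, which had 57 UMIs in resident macrophages.

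Cells of the neutrophil gate were few: 7, 13 and 12 cells in the arthritic isotype, Notch3-/- and wild-type libraries and 13 in the healthy wild-type library, with none in the anti-Notch3 and healthy Notch3-/- libraries. Among its markers Camp, Ngp and Ltf had 33252, 28618 and 3619 CPM, Retnlg and Mmp9 4296 and 1643 CPM, and Cxcr2 62.3 CPM (14 UMIs). Whether these cells had been recruited into the joint was not tested. Pooled over libraries, the 45 cells held 205 CPM of C5ar1 (interval 150 to 273; 53.3% of cells with a UMI) and 142 CPM of Ltb4r1 (97.4 to 201; 37.8% of cells). They held 1825 CPM of Fcer1g, 165 CPM of Fcgr3, 48.97 CPM of Fcgr2b and 17.8 CPM of Fcgr4 (4 UMIs). No UMI of Fcgr1 or C3ar1 was seen, which allows up to 16.4 CPM of each. By library, C5ar1 had 139.9, 178 and 241 CPM in neutrophils of the arthritic isotype, Notch3-/- and wild-type libraries and 229 CPM in those of the healthy wild-type library, and Ltb4r1 had 35.0, 178 and 53.5 CPM against 291 CPM. With at most 13 cells per library, differences between groups were not detectable at this depth.

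Serum transfer was compared over all gated macrophages, 4 arthritic against 2 healthy libraries with Notch3 targeting (the knockout or the anti-Notch3 antibody) as a term. Fcgr1 and Fcgr4 had the largest differences of the 8. Fcgr1 had 137, 93.0, 44.7 and 225 CPM in the arthritic anti-Notch3, isotype, Notch3-/- and wild-type libraries, and 51.4 and 52.8 CPM in the healthy Notch3-/- and wild-type libraries, and Fcgr4 had 140.4, 36.4, 7.71 and 71.7 CPM in the arthritic anti-Notch3, isotype, Notch3-/- and wild-type libraries, and 15.9 and 7.98 CPM in the healthy Notch3-/- and wild-type libraries. The arthritic Notch3-/- library lay below both healthy libraries in each case, so the groups overlapped. The log2 fold changes were 1.37 for Fcgr1 (SE 0.541, unadjusted p = 0.0327, edgeR adjusted p = 0.448) and 2.67 for Fcgr4 (SE 0.921, unadjusted p = 0.0183, edgeR adjusted p = 0.414). None of the 8 members was called, and 0% of the 8934 genes tested were; 916 genes had an unadjusted p under 0.05 and DESeq2 called 63. Without the arthritic Notch3-/- library edgeR called Fcgr4 (3.10, adjusted p = 0.00957), and without both arthritic genotype libraries it called Fcgr1 (1.28, adjusted p = 0.0465) and Fcgr4 (2.85, adjusted p = 0.00609).

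The makeup of the macrophages moved with these values. Resident macrophages were 29.4%, 23.7%, 79.8% and 17.0% of gated macrophages in the arthritic anti-Notch3, isotype, Notch3-/- and wild-type libraries and 68.3% and 82.4% in the healthy Notch3-/- and wild-type libraries. Trem2 macrophages were 24.8%, 59.3%, 1.35% and 39.6% in the same arthritic libraries and 0.769% and 1.20% in the healthy ones. Fewer cells of a kind and less message per cell cannot be told apart in the pooled sum. Within MHC-II-high macrophages alone Fcgr1 had the values given above, with a log2 fold change of 1.24 (SE 0.504, unadjusted p = 0.0314, edgeR adjusted p = 0.557), and Fcgr4 of 1.64 (SE 0.606, unadjusted p = 0.0207, edgeR adjusted p = 0.506). Within resident macrophages the Fcgr1 value was 0.24 (SE 0.330, edgeR adjusted p = 0.853).

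In MHC-II-high macrophages the point values of Fcer1g, C5ar1 and Ltb4r1 did not overlap between arthritic and healthy libraries, for Ltb4r1 by 28.1 against 29.0 CPM. How many of all genes part the libraries in this way was not counted, in this gate or in C1q-low cells, and none of these differences was called. Fcer1g had 2729 to 3767 CPM in the 4 arthritic libraries, against 1934 and 2369 CPM in the 2 healthy ones (log2 fold change 0.70, SE 0.255, unadjusted p = 0.0190, edgeR adjusted p = 0.505). C5ar1 had 184 to 222 CPM in the arthritic libraries, against 268 and 379 CPM in the healthy ones (-0.63, SE 0.277, unadjusted p = 0.0443, edgeR adjusted p = 0.616). Ltb4r1 had 7.33, 28.1, 22.7 and 14.8 CPM in the arthritic anti-Notch3, isotype, Notch3-/- and wild-type libraries, from 4 to 8 UMIs each, against 29.0 and 65.2 CPM in the healthy Notch3-/- and wild-type libraries (-1.53, SE 0.508, unadjusted p = 0.0117, edgeR adjusted p = 0.468). In that gate 0% of 4612 genes were called. In C1q-low cells Fcgr1 had 22.0, 56.9, 6.71 and 99.4 CPM in the arthritic anti-Notch3, isotype, Notch3-/- and wild-type libraries, and 2.52 and 7.47 CPM in the healthy Notch3-/- and wild-type libraries; the ranges overlapped through the Notch3-/- library, and the difference (3.04, SE 0.597, unadjusted p = 3.40e-04) was not called after adjustment over 5813 genes (edgeR adjusted p = 0.302), of which 0% were. C3ar1 in the same cells had 60.6, 56.9, 37.6 and 82.8 CPM in the arthritic anti-Notch3, isotype, Notch3-/- and wild-type libraries, above the 25.8 and 14.9 CPM of the healthy Notch3-/- and wild-type libraries (1.501, SE 0.414, unadjusted p = 0.00395, edgeR adjusted p = 0.443).

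**Figure D5:**
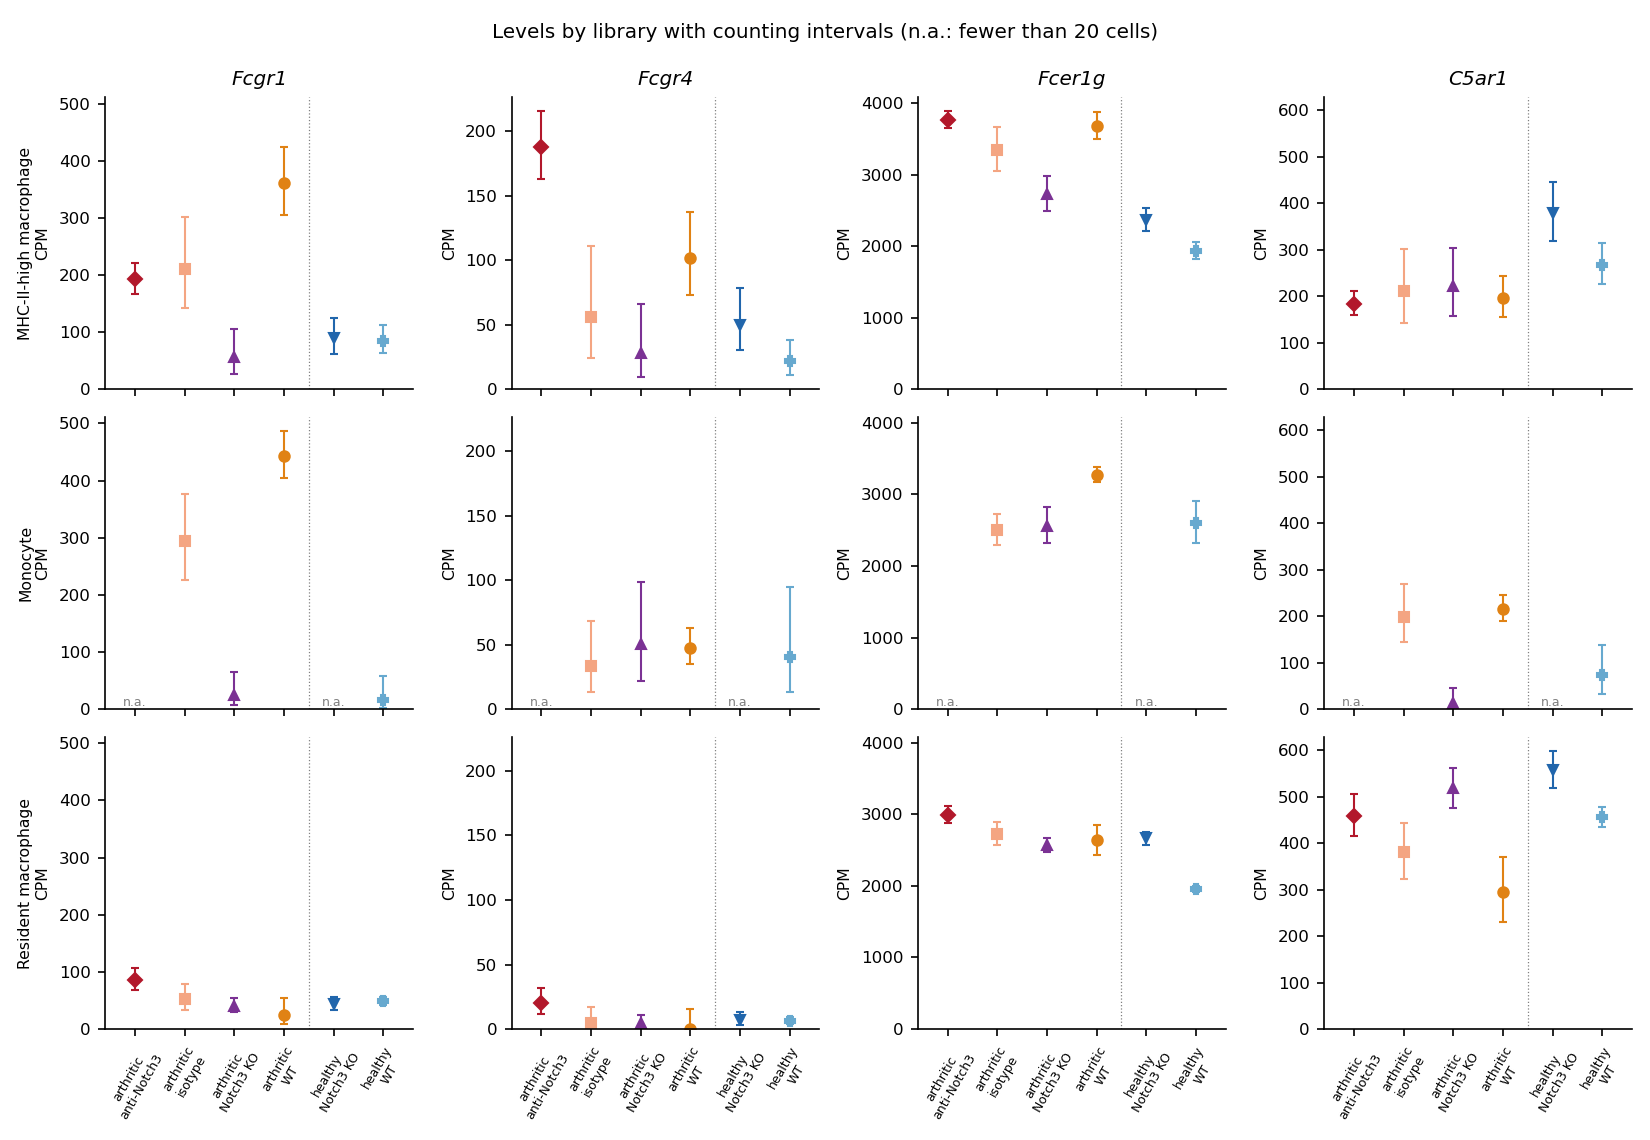
CPM of Fcgr1, Fcgr4, Fcer1g and C5ar1 (columns; vertical axes start at 0 and are shared within a column) in MHC-II-high macrophages, monocytes and resident macrophages (rows) of each library, with exact Poisson 95% intervals; a dotted line parts arthritic from healthy libraries. In MHC-II-high macrophages all 4 arthritic libraries lie above both healthy libraries for Fcer1g and below both for C5ar1. Neither difference was called, and how many of all genes part the libraries in this way was not counted. Fcgr1 in monocytes is high in the arthritic isotype and wild-type libraries (294 and 444 CPM) and low in the arthritic Notch3-/- and healthy wild-type libraries (25.1 and 16.2 CPM).

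Notch3 targeting was compared in the same macrophages, first over all 3 pairs of libraries (knockout against wild type in arthritic and in healthy mice, anti-Notch3 against isotype in arthritic mice). None of the 8 members was called, where edgeR called 0.0336% of 8934 genes (3 genes; 364 had an unadjusted p under 0.05). Log2 fold changes of the members ran from -0.53 (Ltb4r1) to 0.51 (C5ar1), with an adjusted p of 0.999 for each. Over the 2 arthritic pairs alone none was called either, with 0.104% of 9582 genes called (10 genes; 608 with an unadjusted p under 0.05); Fcgr1 had a log2 fold change of -0.82 (SE 0.631, edgeR adjusted p = 0.877) and Fcgr3 of 0.50 (SE 0.280, edgeR adjusted p = 0.839). DESeq2 also called no member in either comparison.

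The 2 arthritic pairs differed in direction for 4 members in pooled macrophages. Fcgr1 had 44.7 CPM in the Notch3-/- library and 225 CPM in the wild-type library, but 137 CPM in the anti-Notch3 library and 93.0 CPM in the isotype library. Fcgr4 had 7.71 CPM against 71.7 CPM in the first pair and 140.4 CPM against 36.4 CPM in the second. The difference between the pairs was not tested, and the makeup of the macrophages differed between them. The share of all genes with such opposite directions was not counted. Gate by gate, Fcgr1 was lower in the Notch3-/- than in the wild-type library in MHC-II-high macrophages, monocytes, C1q-low cells and dendritic cells. It was higher in resident macrophages (40.4 CPM against 24.9 CPM, on 43 and 6 UMIs). The anti-Notch3 library was also below isotype in MHC-II-high macrophages, C1q-low cells and dendritic cells (0 and 2 UMIs), and above it in resident and Trem2 macrophages. By point values, Fcgr1 thus went the same way in every gate measured in both arthritic pairs. Fcgr4 was higher in the anti-Notch3 than in the isotype library in resident, Trem2 and MHC-II-high macrophages and in C1q-low cells. In the knockout pair Fcgr4 was lower with targeting in MHC-II-high macrophages, C1q-low cells and dendritic cells. It was higher there in resident macrophages (5 against 0 UMIs) and, with overlapping counting intervals, in monocytes. In resident macrophages alone Fcgr2b was 274 and 269 CPM in the anti-Notch3 and arthritic Notch3-/- libraries against 173 and 169.9 CPM in the isotype and arthritic wild-type libraries (log2 fold change 0.68, SE 0.200, unadjusted p = 0.00387, edgeR adjusted p = 0.392, where 0.332% of 8436 genes were called).

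In MHC-II-high cells with little C1q, 4 members had an unadjusted p under 0.05 over the 2 arthritic pairs, and none an adjusted one. The share of all genes under that unadjusted p in this gate is not given here, so the count of 4 has nothing to be set against. Fcgr1 had 22.0 and 6.71 CPM in the anti-Notch3 and arthritic Notch3-/- libraries against 56.9 and 99.4 CPM in the isotype and arthritic wild-type libraries (log2 fold change -2.33, SE 0.601, unadjusted p = 0.00167, edgeR adjusted p = 0.175). C5ar1 had 11.01 and 10.7 CPM against 28.5 and 74.5 CPM (-2.03, SE 0.626, unadjusted p = 0.00592, edgeR adjusted p = 0.287). Ltb4r1 had 128 and 205 CPM against 81.3 and 62.1 CPM (1.38, unadjusted p = 0.00181, edgeR adjusted p = 0.182). Fcgr3 had 310.1 and 266 CPM against 219.5 and 190.5 CPM (0.68, SE 0.278, unadjusted p = 0.0275, edgeR adjusted p = 0.494). In that gate 0.351% of 6845 genes were called by adjusted p, an unlike threshold. The interferon sum there was 235 and 137 CPM in the anti-Notch3 and arthritic Notch3-/- libraries against 366 and 443 CPM in the isotype and arthritic wild-type libraries, and its part in the Fcgr1 values was not tested.

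Other genes of the same pathways were counted from lists by role, against resident macrophages by the same edgeR test. The shares of all genes called were 9.38% in Trem2 macrophages, 29.3% in MHC-II-high macrophages, 31.3% in monocytes, 45.2% in C1q-low cells and 50% in dendritic cells. Of the 18 ITAM and ITIM signalling genes, 2 of the 16 tested were higher and none lower in Trem2 macrophages, 6 of 18 higher and none lower in MHC-II-high macrophages, and 5 of 17 higher and none lower in monocytes. In C1q-low cells 9 were higher and 3 lower of 18, and in dendritic cells 4 were higher and 2 lower of 15. The median log2 fold change of the list was 0.31, 0.31, 0.61, 0.25 and -0.21 in the 5 gates in that order, where the median of all genes tested was 0.01, 0.00, -0.03, -0.02 and -0.06. Fgr, a Src-family kinase, was higher in all 5 gates, by 1.43 in Trem2 macrophages, 2.75 in MHC-II-high macrophages, 3.25 in monocytes, 3.25 in C1q-low cells and 2.73 in dendritic cells. Malt1, which carries the signal from Card9 and Bcl10 to NF-kB, was higher by 2.95, 3.47, 3.83 and 4.14 in the last 4. The inhibitory phosphatase Inpp5d, the partner of Fcgr2b, was lower in C1q-low cells (-0.43, edgeR adjusted p = 0.0323), where Fcgr2b was higher.

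Receptors that signal through an ITAM adaptor or its relatives were set against the same shares of all genes. In Trem2 macrophages 4 of the 9 tested were higher and none lower (9.38% of all genes called). In MHC-II-high macrophages 4 were higher and 4 lower of 9 (29.3%), and in monocytes 4 higher and 2 lower of 10 (31.3%). In C1q-low cells 3 were higher and 6 lower of 10 (45.2%), and in dendritic cells none higher and 5 lower of 7 (50%). The adaptor Tyrobp (DAP12) was higher by 0.40, 0.43, 0.91 and 0.39 in the first 4 gates. Clec4e (Mincle), which pairs with Fcer1g, was higher in 4 gates, by 1.16 in C1q-low cells to 4.68 in monocytes, and Trem1 was higher in monocytes (6.62). Of 11 other Fc receptors few were detected. The neonatal Fc receptor gene Fcgrt was lower in all 5 gates, by a log2 fold change of -1.83 in Trem2 macrophages to -3.53 in monocytes. Fcrla was higher in dendritic cells (6.34), but all gated macrophages together held 5 Fcrla UMIs. Fcrla thus passed the filter on low counts only through dendritic cells, which fixed the direction of its call. Trem1 UMIs in resident macrophages are not given here, so the same may hold for its monocyte value. Other list genes were not checked in this way.

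Counts of the last 3 lists stand beside the same shares of all genes called. These were 9.38% in Trem2 macrophages, 29.3% in MHC-II-high macrophages, 31.3% in monocytes, 45.2% in C1q-low cells and 50% in dendritic cells. Of 10 other chemoattractant receptors 5 or 6 were tested per gate, with 1 to 3 higher and 0 to 3 lower. Ccr2, the monocyte chemokine receptor, was higher than in resident macrophages in all 5 gates (2.72 to 3.80), and Cmklr1, the chemerin receptor, was lower in 4. C5ar2, the second receptor for C5a, was lower in C1q-low cells (-4.34), where C5ar1 was lower too. Of 10 ligand-supply genes 5 to 7 were tested per gate, with 0 or 1 higher and 3 or 4 lower. Alox5, the first enzyme of leukotriene synthesis, was lower in all 5 gates (-1.53 in Trem2 macrophages to -5.10 in monocytes), as was Ltc4s, the leukotriene C4 synthase (-1.88 to -7.18). Lta4h, which makes leukotriene B4, was higher in C1q-low cells (0.72, edgeR adjusted p = 0.00807), where Ltb4r1 was higher too. C3 was higher in monocytes (4.46) and MHC-II-high macrophages (1.45), and Hc, the gene for C5, had no UMI in gated macrophages or monocytes. Of 13 signalling genes downstream of chemoattractant receptors, none of the 11 tested was called in Trem2 macrophages, 4 were higher and 1 lower of 11 in MHC-II-high macrophages, 1 higher and 4 lower of 11 in monocytes, 5 higher and 4 lower of 12 in C1q-low cells, and 1 higher and 3 lower of 11 in dendritic cells. The small GTPase gene Rac2 was higher in 4 of these gates, by 0.43 in dendritic cells to 1.18 in monocytes. In the arthritis and Notch3 comparisons of gated macrophages no gene of any of the 6 lists was called.

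The low-affinity receptor genes lie together on chromosome 1 of mm10: Fcgr2b at 170958617 to 170976547 (minus strand), Fcgr4 at 171018920 to 171029761 (plus) and Fcgr3 at 171051174 to 171064935 (minus), with Fcer1g at 171229572 to 171234365 (minus). Fcgr1 lies on chromosome 3 (96282909 to 96293969, minus), C5ar1 on chromosome 7 (16246743 to 16259540, minus), C3ar1 on chromosome 6 (122847138 to 122856161, minus) and Ltb4r1 on chromosome 14 (55765962 to 55768494, plus). No stretch of 50 bases in the last 500 bases of their transcripts was shared between members. Ifi202b, an interferon-inducible gene 3006 kb from the Fcgr2b start, had 77 and 171 UMIs in gated macrophages of the arthritic and healthy wild-type libraries and none in the other 4 libraries, the isotype and anti-Notch3 libraries included. Its neighbours Ifi203, Ifi204 and Mndal had UMIs in all 6. The part of this split in the values of Fcgr2b, Fcgr3, Fcgr4 and Fcer1g was not tested. The labels name no strain, so in the comparisons of Notch3-/- with wild-type libraries a difference in strain, for these 4 genes or any other, cannot be told apart from the Notch3 genotype.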

How the data were processed

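Count matrices of 6 knee-synovium libraries were used, with UMI counts per gene and cell barcode as deposited; per the submitters' processing notes they were made with Cell Ranger 3.0.2 and mm10, and the annotation and counting options are not given in the sources used here. Deposited barcodes had at least 501 genes and at most 19.9% mitochondrial UMIs, so the authors' filter precedes these values. Barcodes over 10% mitochondrial UMIs (414) and Scrublet doublets (179, 0.990%, from 3 to 103 per library) were left out, as were cells with markers of more than 1 lineage.

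Cells were gated by raw UMIs of marker genes without any of the 8 receptors: macrophages by 10 or more C1q UMIs, resident macrophages by 5 or more UMIs of the resident panel, MHC-II-high cells by 50 or more UMIs of the MHC-II panel, Trem2 macrophages by 5 or more of the Trem2 panel, neutrophils by 20 or more, and dendritic cells and monocytes by 3 or more of theirs (for monocytes Ly6c2, Plac8, Chil3 and F10). The members, lists, gate thresholds and the interferon list were chosen with earlier results of these data known, and the direction of a list is no independent evidence. List genes named in the text passed the test in a gate; Inpp5d, Lta4h and C5ar2 were singled out after their values were seen. Some genes that these rules name are not reported here.

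UMIs were summed per gate and library (20 or more cells) and tested with edgeR 4.0.16 in R 4.3.3 (quasi-likelihood, TMM, filterByExpr, Benjamini-Hochberg threshold 0.05): each gate against resident macrophages with library as a block, Notch3 targeting with the library pair as a block, and arthritis with targeting as a second term. Treating the library pairs as replicates of 1 comparison assumes that knockout and antibody act alike. Each library pools 10 mice, so the spread between libraries is the error. DESeq2 1.42.0 was an alternative, as were other scalings, filters, thresholds and left-out libraries; total-UMI scaling and fits in single gates were chosen after seeing the data. The fits were tested on simulated counts. Of 2-fold changes they recovered 26.3% (targeting, 3 pairs), 14.4% (targeting, 2 arthritic pairs) and 25.8% (arthritis), so these fits miss most changes of that size. Of 8-fold changes they recovered 99.0%, 91.8% and 100% in that order. The comparisons with resident macrophages recovered 37.2% (monocytes) to 78.1% (C1q-low cells) of 2-fold changes. Intervals are exact at 95%.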

Additional observations from a re-analysis of the deposited data

Results flagged for a closer look

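Among dendritic cells 4 values stood far from those of the other arthritic libraries by Dixon's criterion. In the arthritic wild-type library Fcgr1 had 90.23 CPM (0 to 14.9 CPM in the other 3), Fcgr4 had 18.05 CPM and C5ar1 had 9.023 CPM (both 0 in the other 3). In the arthritic Notch3-/- library Fcgr3 had 113 CPM (29.7 to 36.1 CPM in the other 3). The Fcgr4 and C5ar1 values rest on 4 and 2 UMIs. In all 45 sets were looked at, each of a member or the Fcgr2b share in a gate. Chance flags about 1 in 20 where values are normally distributed. That rate does not hold for Fcgr4 and C5ar1 here, because any UMI is flagged when the other 3 libraries have 0.

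In pooled macrophages 4 of 8 members had opposite differences in the 2 arthritic pairs, each beyond counting error. As ratios of CPM, knockout over wild type and then anti-Notch3 over isotype, they were 0.1983 and 1.475 for Fcgr1, 0.1075 and 3.861 for Fcgr4, 0.8081 and 1.204 for Fcer1g, and 0.7169 and 1.313 for Fcgr2b. With 1 library per group the difference between pairs was not tested. How many of all genes met the same rule was not counted, so 4 of 8 has no share to be set against.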

How the results depend on the processing

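No value of a member passed the threshold in the opposite direction under any alternative run. Of single-gene values 818 stayed on their side of the threshold, 21 became called and 18 lost the call. The 818 include values called in neither run that changed direction, such as Fcgr2b in monocytes (log2 fold change -0.487 to 0.440 over the alternatives). With Notch3 targeting over all 3 pairs (3 genes called), the count was 32 with no filter on low counts, 1 with monocytes added, 10 without the antibody pair, and 0 without the healthy pair, without the arthritic genotype pair or with arthritis in place of the pair term. Over the 2 arthritic pairs (10 genes), it was 98 with no filter, 5 with median-of-ratios scaling, 16 with no mitochondrial limit, 28 in resident macrophages alone, 24 in C1q-low cells alone, and 0 with total-UMI scaling, halved or doubled gate thresholds, or without mitochondrial, ribosomal and haemoglobin genes. For arthritis (0 genes, 0 members), 458 genes and 2 members were called with no filter, 63 genes by DESeq2, 146 genes and 2 members without the arthritic genotype pair, and 5 genes without the antibody pair; leaving out 1 library gave 0 to 125 genes and 0 to 1 member, the highest without the arthritic Notch3-/- library. Against resident macrophages, Trem2 macrophages had 4 members called with no filter, 1 with DESeq2 and 4 with doubled thresholds (main value 2). The median Fcgr2b share in dendritic cells was 35.0% in the 1 library left by doubled thresholds, and in other macrophages 40.3% with halved and 32.1% with doubled thresholds. The causes were not tested. Dendritic cells could not be fitted with doubled thresholds.

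The library pair is a term of the targeting fit and the library a block in each gate comparison; the labels number no replicates, so no fit used a replicate number. Gates use raw UMIs, so cells of shallow libraries pass less often: resident macrophages had median UMIs of 3310 to 7135 per library. Thinning to 2000 UMIs is given for monocyte Fcgr1. Gates of 21 to 59 cells limit what can be detected, and each group is 1 library. Dendritic cells, and monocytes and other macrophages of 3 libraries each, were gates of that size. So were MHC-II-high macrophages of the arthritic isotype and Notch3-/- libraries (37 and 40 cells) and C1q-low cells of the isotype library (51 cells).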
